A study of Rattus norvegicus with 2 samples.

Results

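The epidermal growth factor (EGF) family and its ErbB receptors were read as 10 genes of the 32883 in the files. They were chosen by symbol, with earlier results of these data known. They were 6 ligands (Egf, Tgfa, Areg, Ereg, Hbegf and Btc), 3 receptors (Egfr, Erbb2 and Erbb3) and 1 inhibitor (Lrig1). The cells were epithelium of the proximal jejunum from 2 male Sprague Dawley rats, 6 to 8 weeks old and 180 to 200 g, that were untreated apart from fasting overnight. The epithelium was released with EDTA and split into single cells with dispase, and each rat gave 1 droplet library read from the 3′ end of transcripts. Transcripts were tagged with a molecular barcode (a UMI) before amplification, and each tag was counted a single time. No experimental groups were compared, so the comparisons are between cell classes of the same 2 rats, and a dissociated suspension may not hold each cell type in its share of the tissue.

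EGF family ligands are made as membrane-bound precursors, and proteases such as Adam17 cut them free. A freed ligand binds Egfr, which pairs with itself or with Erbb2 or Erbb3 and passes the signal to the Ras, Raf, Mek and Erk kinases and to PI3-kinase. Erbb2 has no known ligand of its own, and Erbb3 has little kinase activity and binds neuregulins, so both act mostly in pairs. In the intestine the pathway is known for driving division of stem and progenitor cells in the crypt, where Lrig1 marks stem cells and restrains ErbB receptors.

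The retained cells were those with more than 5000 UMIs and at most 40% mitochondrial UMIs, 5988 of 12033 barcodes in rat 1 and 2230 of 8252 in rat 2. They were clustered without these genes and named from markers, which gave 1180 crypt cells in rat 1 and 36 in rat 2, 3970 and 1119 enterocytes, 172 and 14 cycling goblet cells, 176 and 139 goblet cells, 21 and 11 endocrine cells, 19 and 123 tuft cells, and 8 and 76 CFTR High Expresser cells (CHEs). Enterocytes were split within each rat into early, middle and mature tertiles by 9 villus genes such as Apoa4 and Ada, which makes the tertiles ranges of a score and not cell types. The limit between early and middle was a score of 2.41 in rat 1 and 3.505 in rat 2, so a tertile does not hold the same range in both rats. The summed level of the 6 tuft markers was 1035 UMIs per 1000000 (CPM) in tuft cells of rat 1 and 4083 in rat 2, and that of the 4 CHE markers was 2235 and 3566 in CHEs. The 5 Paneth markers summed to 5199 and 1472 CPM in goblet cells and to 1394 and 31.3 in crypt cells. They reached 92898 CPM in the 28 cells of rat 1 removed with the erythroid clusters, where Defa24 alone was at 85198, so Paneth cells were not separated as a class. Tuft cells of rat 1 also held 706 CPM of the stem and 543 of the cycling markers, against 1135 and 1000 in crypt cells of that rat and 74.0 and 137 in tuft cells of rat 2, which in turn held 32395 CPM of the enterocyte markers. The part of such admixture in the tuft levels was not tested. The crypt cells of rat 2 carried 10756 CPM of the 3 erythroid markers and 968 of the 6 leukocyte markers, against 233 and 296 in rat 1, and rest on 638316 UMIs in all.

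The total UMIs behind a class ranged from 80538 for the 8 CHEs of rat 1 to 18931369 for its early enterocytes. A single UMI was thus worth 12.4 CPM in the former and 0.0528 in the latter. CPM values refer to the total of the class and rat. They set levels of one gene, not of different genes, side by side between classes, with no correction for composition. Scaled by totals alone, the median log2 fold change of all genes was -0.79 in mature against early enterocytes. It was -0.58 in enterocytes, 0.66 in crypt cells and 0.61 in tuft cells against the other types. Ratios of CPM between classes carry such shifts. Class sums entered the quasi-likelihood test of edgeR, adjusted by Benjamini-Hochberg over 10109 genes, among them 8 of the 10 genes. Egf and Lrig1 had too few UMIs to be tested. Log2 fold changes set a cell type against the other types, averaged with equal weight, with the enterocyte tertiles together as a single type. Cycling goblet cells were in the model but in none of these comparisons. The p-values rest on the spread between the 2 rats within classes, pooled over all 9 classes, and each SE comes from that same fit. The model took the sums of a rat as independent, although they correlated.

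Enterocytes stood above the average of the other cell types in 4 of the 8 genes tested, Tgfa, Ereg, Erbb2 and Erbb3, where 37.4% of all genes were called in either direction. That average takes in classes near 0, such as tuft cells for Tgfa, and it does not place enterocytes above each class. Goblet cells stood above in 3 of 8, Areg, Hbegf and Egfr, where 5.2% of all genes were called. CHEs were higher in 1 of 8, Areg, where 5.46% of all genes were called. Tuft cells were lower in 1 of 8, Tgfa, with 4.25% called among all genes, and crypt cells were lower in 1 of 8, Btc, with 17.9% called. Endocrine cells, with 5.72% of all genes called, differed in 0 of 8 genes, 0 of 8 had an unadjusted p under 0.05, and DESeq2 called 0 of 8. Mature enterocytes differed from early ones in 0 of 8 genes, with 3.3% of all genes called, although 4 of 8 had an unadjusted p under 0.05 and DESeq2 called 4 of 8. Shares of all genes passing these last 2 criteria are not given here, so both counts lack a background and are no result about these genes. When the model held the rat as a block, 26.6% of all genes were called between mature and early enterocytes and so were 4 of these 8 genes. That model called 5 of 8 in enterocytes (46.8% of all genes), 2 of 8 in crypt cells (29.5%), 3 of 8 in goblet cells (10.2%), 4 of 8 in tuft cells (7.58%), 1 of 8 in CHEs (9.35%) and 0 of 8 in endocrine cells (8.09%).

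**Figure D1:**
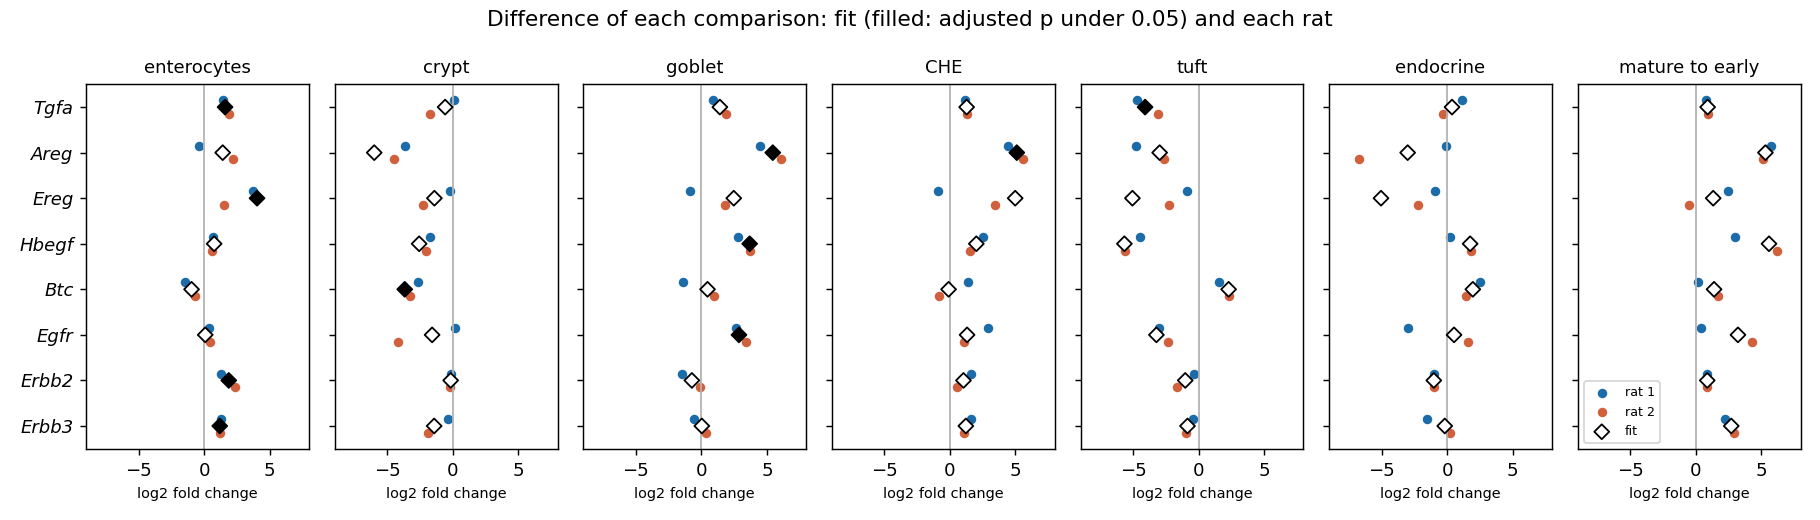
Log2 fold changes (x axes) of the 8 tested genes (y axis) in 7 comparisons, with 1 point per rat and a diamond for the fit, filled where the adjusted p was under 0.05. Areg lay at 5.45 in goblet cells and 5.10 in CHEs, and Tgfa at -4.08 in tuft cells.

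Areg encodes amphiregulin, a ligand that binds Egfr and is known for induction in epithelial repair. Its promoter held the cyclic AMP response element TGACGTCA, a palindrome that reads alike on both strands, starting 91 bases before the annotated start. Of the promoters of 8 of these genes in the RefSeq table (300 bases each), 1 held that motif, as did 1.83% of all 33469 promoters. A TATAAA box began 61 bases before the start of Areg, and 1 of the 8 promoters and 14.2% of all promoters held one on either strand. The AP-1 motif TGANTCA, searched on both strands, was in 0 of the 8 and in 7.33% of all promoters. Both windows of Areg are printed 5′ to 3′ on the minus strand of GRCr8 with the motif in capitals, because Areg had the largest called fold change of the 8 genes in the model without the rat as a block.
Areg, chr14:17265714-17265743: caggagaggcgTGACGTCAcgggcggtggt
Areg, chr14:17265685-17265714: ttcccgcgggtcTATAAAgtgctcaccgca

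Areg reached its highest levels in goblet cells, at 79.8 CPM in rat 1 and 544 in rat 2, and in CHEs, at 86.9 and 431. Mature enterocytes were next with 25.2 and 177, followed by middle enterocytes with 2.65 and 46.0 and early enterocytes with 0.370 and 8.55. Crypt cells held 8 UMIs in rat 1 and 1 in rat 2, cycling goblet cells 1 in each rat, and tuft cells 0 and 5. Rat 2 lay above rat 1 in 8 of the 9 classes, by so much that neighbours in the order of class means overlapped throughout, while goblet cells and CHEs led within each rat.

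Against enterocytes of the same rat, Areg in goblet cells was 9.11 times as high in rat 1 (exact 95% interval 7.39 to 11.1) and 9.04 times in rat 2 (8.36 to 9.78). In CHEs the ratio was 9.91 in rat 1, from 7 UMIs (3.96 to 20.6), and 7.17 in rat 2 (6.44 to 7.98). Against mature enterocytes alone the ratio in goblet cells was 3.16 in rat 1 (2.56 to 3.88) and 3.07 in rat 2 (2.81 to 3.34). That of CHEs to mature enterocytes was 3.44 (1.38 to 7.16) and 2.43 (2.17 to 2.72). These intervals cover counting error only. The log2 fold change against the other cell types was 5.45 ± 1.04 (SE; n = 2 rats) in goblet cells, with an adjusted p of 0.00482 by edgeR's quasi-likelihood test, and 4.44 and 6.08 in the rats taken singly. In CHEs it was 5.10 ± 1.06, with an adjusted p of 0.0103 by the same test, and 4.40 and 5.60 in the single rats. Both rats therefore showed the direction in both classes. The leukocyte markers summed to 608 (2 of 6 with a UMI) and 485 CPM (5 of 6) in CHEs and to 131 and 113 in goblet cells (6 of 6). The leukocytes of rat 2, kept for at most 10 UMIs of Epcam and keratin genes, held Areg at 6.42 CPM. In crypt cells the log2 value of Areg was -5.99 with an adjusted p of 0.0821 by edgeR, and -4.15 with 0.00347 once the rat was a block.

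Goblet cells did not carry Areg evenly. They fell into 3 clusters. A small one, of 30 cells in rat 1 and 21 in rat 2, is called Atf3-led because it was picked for the highest level of Atf3. That gene encodes a stress-induced transcription factor. In rat 1, 120 of the 121 goblet UMIs of Areg lay in that cluster, which gave 522 CPM, against 1 UMI in 132 cells of the first cluster and 0 in 14 cells of the second. In rat 2 the Atf3-led cluster held 426 of 1082 UMIs and stood at 1508 CPM, the second cluster (77 cells) at 582 and the first (41 cells) at 89.1. Both rats therefore had their highest Areg level in the same cluster, and only rat 2 had a high level outside it. Atf3 itself, by which the cluster was picked, was at 566 and 747 CPM there, against 5.19 and 45.3 in the first cluster and 15.3 (2 UMIs) and 295 in the second. That order follows from the choice. Jun, at 448 and 903, and Egr1, at 261 and 492, were also highest there among the goblet clusters of both rats. Fos was highest there in rat 1, at 536, but in rat 2 it was at 407 against 656 in the second cluster. The median mitochondrial share of the Atf3-led cluster was 2.21% and 2.40%, against 7.09% and 8.66% in the first and 5.57% and 3.37% in the second. The part of these differences in the level of Areg was not tested. When the Atf3-led cluster was left out, the log2 fold change of Areg in goblet cells was 4.77 with an adjusted p of 0.0452 by edgeR, but -1.67 in rat 1, where 1 UMI was left, and 5.58 in rat 2. That call thus rests on rat 2.

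**Figure D2:**
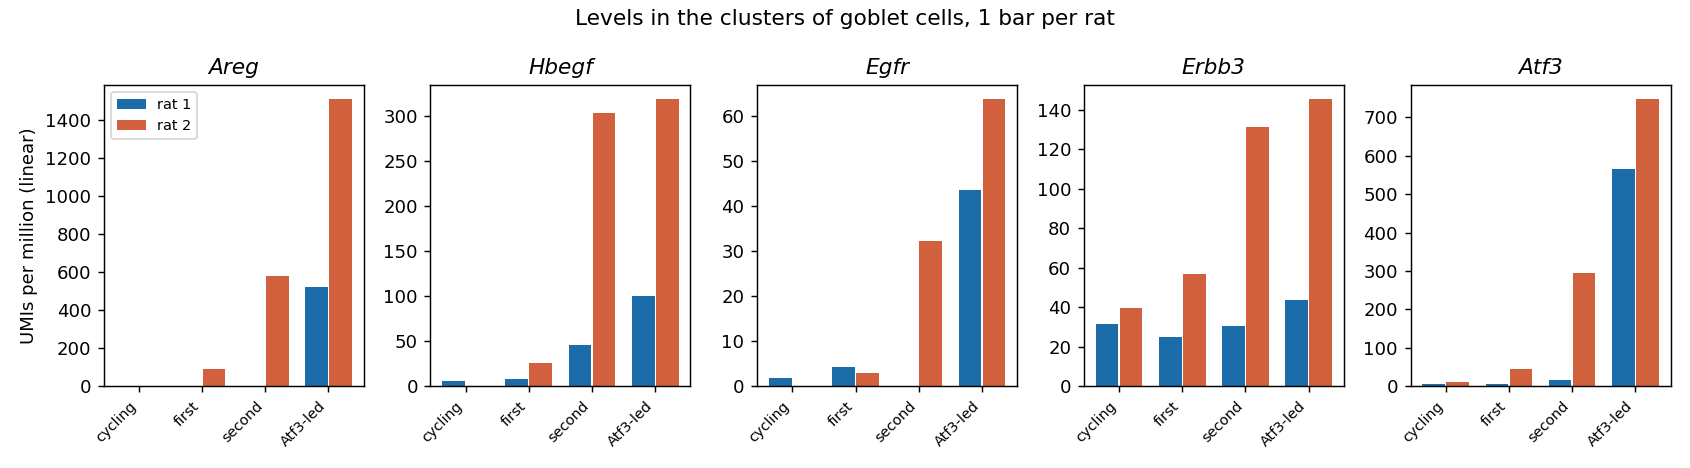
CPM (y axes, linear) of Areg, Hbegf, Egfr, Erbb3 and Atf3 in cycling goblet cells and in 3 goblet clusters, with 1 bar per rat. The Atf3-led cluster had the highest Areg bar in both rats, 522 and 1508.

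Shares of cells were lower in rat 1 than in rat 2 as well. After each cell was thinned to 5000 UMIs, 3.98% of 176 goblet cells in rat 1 (95% interval by Clopper-Pearson 1.61 to 8.02%) and 51.8% of 139 in rat 2 (43.2 to 60.3%) had an Areg UMI. Without thinning the shares were 5.68% and 60.4%, at median depths of 8383 and 14563 UMIs. Among CHEs, 2 of 8 cells in rat 1 and 67.1% of 76 in rat 2 (55.4 to 77.5%) had one after thinning. In 235 leukocytes of rat 2 the share was 2.55% (0.943 to 5.47%) at a median depth of 5818 UMIs, below the shares of both classes in that rat. These were the cells, of 308 in its leukocyte clusters, with at most 10 UMIs of Epcam and keratin genes. That choice itself favours few epithelial transcripts, here and where Btc, Egfr and Erbb3 are set beside leukocytes, so the share is no independent background. Rat 1 had only 8 such cells, of 199 in its leukocyte clusters, with 0 Areg UMIs, so its shares lack even this background. The 10 cells with an Areg UMI in rat 1 goblet cells held all 121 UMIs, and the top cell held 44.

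Areg was also set against the goblet markers, which summed to 191321 and 313333 CPM in goblet cells, 435 and 463 in CHEs and 478 and 711 in mature enterocytes. Per 1000 UMIs of the 6 goblet markers there were 0.417 Areg UMIs in goblet cells of rat 1 and 1.74 in rat 2. The same ratio was 200 and 932 in CHEs and 52.8 and 249 in mature enterocytes.

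Hbegf encodes heparin-binding EGF-like growth factor, which binds Egfr and Erbb4. Its level was 25.7 CPM in goblet cells of rat 1 and 210 in rat 2, and 19.0 and 166 in mature enterocytes. CHEs held 24.8 (2 UMIs) and 60.9, and endocrine cells 5.56 (1 UMI) and 103 (16 UMIs). Middle enterocytes stood at 2.21 and 24.3, early enterocytes at 3.54 and 3.69 and crypt cells at 1.76 and 12.5, and tuft cells held 0 UMIs and 1 UMI. Goblet cells, mature enterocytes, endocrine cells and CHEs overlapped in the order of means, and CHEs lay above middle enterocytes, the next class, in both rats.

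In goblet cells the log2 fold change of Hbegf was 3.69 ± 0.95 (SE; n = 2 rats), with an adjusted p of 0.0351 by edgeR, and 2.80 and 3.72 in the single rats. Without the Atf3-led cluster it was 3.48 with an adjusted p of 0.0656, and with library sizes alone 3.40 with 0.0571. It was 3.63 with 0.0569 under a limit of 20% mitochondrial UMIs and 3.38 with 0.0552 without integration. In that cluster Hbegf was at 100.1 and 319 CPM, in the second at 45.8 (6 UMIs) and 303, and in the first at 8.66 and 26.3, which in rat 2 is the order seen for Areg. In tuft cells the log2 value was -5.66 with an adjusted p of 0.198, and -6.11 with 0.0277 with the rat as a block. The blocked fit also called Areg in tuft cells, at -3.81 with an adjusted p of 0.0257.

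Btc, encoding betacellulin, a ligand of Egfr and Erbb4, had another pattern. It was at 18.6 CPM (4 UMIs) in tuft cells of rat 1 and 48.0 (48 UMIs) in rat 2, and at 22.2 and 25.7 (4 UMIs each) in endocrine cells. By measured level these 2 classes lay above all others in both rats. The others ranged from 0.510 to 12.4 in rat 1 and from 0 to 13.6 in rat 2. The 12.4 was 1 UMI in the 8 CHEs of rat 1, so the place of CHEs there was not resolved. Tuft and endocrine cells overlapped each other. The ratio of tuft cells to enterocytes was 12.5 in rat 1 (exact 95% interval 3.34 to 33.4) and 12.9 in rat 2 (8.91 to 18.4), and that of endocrine cells to enterocytes was 15.0 (3.99 to 39.99) and 6.88 (1.84 to 18.2).

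The log2 fold change of Btc in tuft cells was 2.30 ± 0.68 (SE; n = 2 rats) with an adjusted p of 0.0813 by edgeR, which missed the threshold, and 2.17 with 0.0178 with the rat as a block. After thinning, 17.1% of 123 tuft cells of rat 2 had a Btc UMI (10.9 to 24.9%), 30.9% without thinning. Of the leukocytes of that animal 0 of 235 had one, which allows up to 1.28% by the limit of 3 counts, not by Clopper-Pearson. In rat 1, 2 of 19 tuft cells had one. In crypt cells, where Btc had 16 UMIs in rat 1 and 1 in rat 2, it was lower by a log2 value of -3.66 ± 1.04, with an adjusted p of 0.0281 by edgeR. That call was lost with a limit of 20% mitochondrial UMIs (-2.34, adjusted p 0.195), with no upper gene limit (-2.95, 0.0789) and without integration (-2.58, 0.0933). The blocked fit called Btc lower in enterocytes as well, at -0.97 with an adjusted p of 0.0466.

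Tgfa, encoding transforming growth factor alpha, had like levels in most classes. Enterocytes held 9.46 to 10.3 CPM in the tertiles of rat 1 and 11.5 to 12.8 in those of rat 2. Goblet cells stood at 9.24 and 17.1, CHEs at 12.4 (1 UMI) and 12.8, endocrine cells at 11.1 (2 UMIs) and 6.41 (1 UMI), and crypt cells at 6.89 and 3.13 (2 UMIs). Tuft cells were apart, with 0 UMIs of 215423 in rat 1 and 1 of 1000171 in rat 2. A count of 0 in the tuft cells of rat 1 allows up to 13.9 CPM, so the low level rests on rat 2, where enterocytes were at 12.3 and tuft cells at 0.0816 times that (exact 95% interval 0.00206 to 0.458).

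By edgeR the log2 fold change of Tgfa was -4.08 ± 0.93 in tuft cells, with an adjusted p of 0.0208, and 1.59 ± 0.35 in enterocytes, with 0.00281. DESeq2 gave -3.84 with an adjusted p of 0.0643 in tuft cells. Enterocyte values depend on scaling. The median of all genes was 0.10 in the enterocyte comparison with TMM factors and -0.58 with library sizes alone, where Tgfa was at 0.91 with an adjusted p of 0.0422. With a limit of 20% mitochondrial UMIs it was at 0.86 with an adjusted p of 0.0737.

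Ereg, encoding epiregulin, had few UMIs and no order shared by the rats. In enterocytes it was at 1.58, 5.36 and 6.60 CPM in the early, middle and mature tertiles of rat 1 and at 3.15, 1.64 and 1.17 in those of rat 2. The order of the tertiles was thus opposite in the rats, and their ranges overlapped. Crypt cells held 4 and 0 UMIs, and cycling goblet, endocrine and tuft cells 0 in both rats. CHEs of rat 2 held 9 UMIs, or 8.84 CPM, which was 4.08 times the enterocytes of that rat (exact 95% interval 1.77 to 8.29), and those of rat 1 none, which allows up to 37.2. Goblet cells held 0 UMIs in rat 1 and 6 in rat 2, or 3.02 CPM, beside 2.17 in enterocytes of rat 2. By measured level enterocytes were thus the highest class in rat 1 only, and CHEs came first by the mean of both rats. The log2 fold change in enterocytes was 4.03 with an adjusted p of 0.0244 by edgeR, 3.73 and 1.49 in the single rats, 3.65 with 0.0671 with library sizes alone and 2.01 with 0.0945 by DESeq2. With a limit of 20% mitochondrial UMIs Ereg had too few UMIs to be tested. Since several classes were at 0, the size of that fold change depends on the prior count of the fit.

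Egf itself was nearly absent. The files held 3 UMIs of it in all barcodes of rat 1 and 1 in rat 2, and 2 of these lay in a named class, the crypt cells of rat 1.

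**Figure D3:**
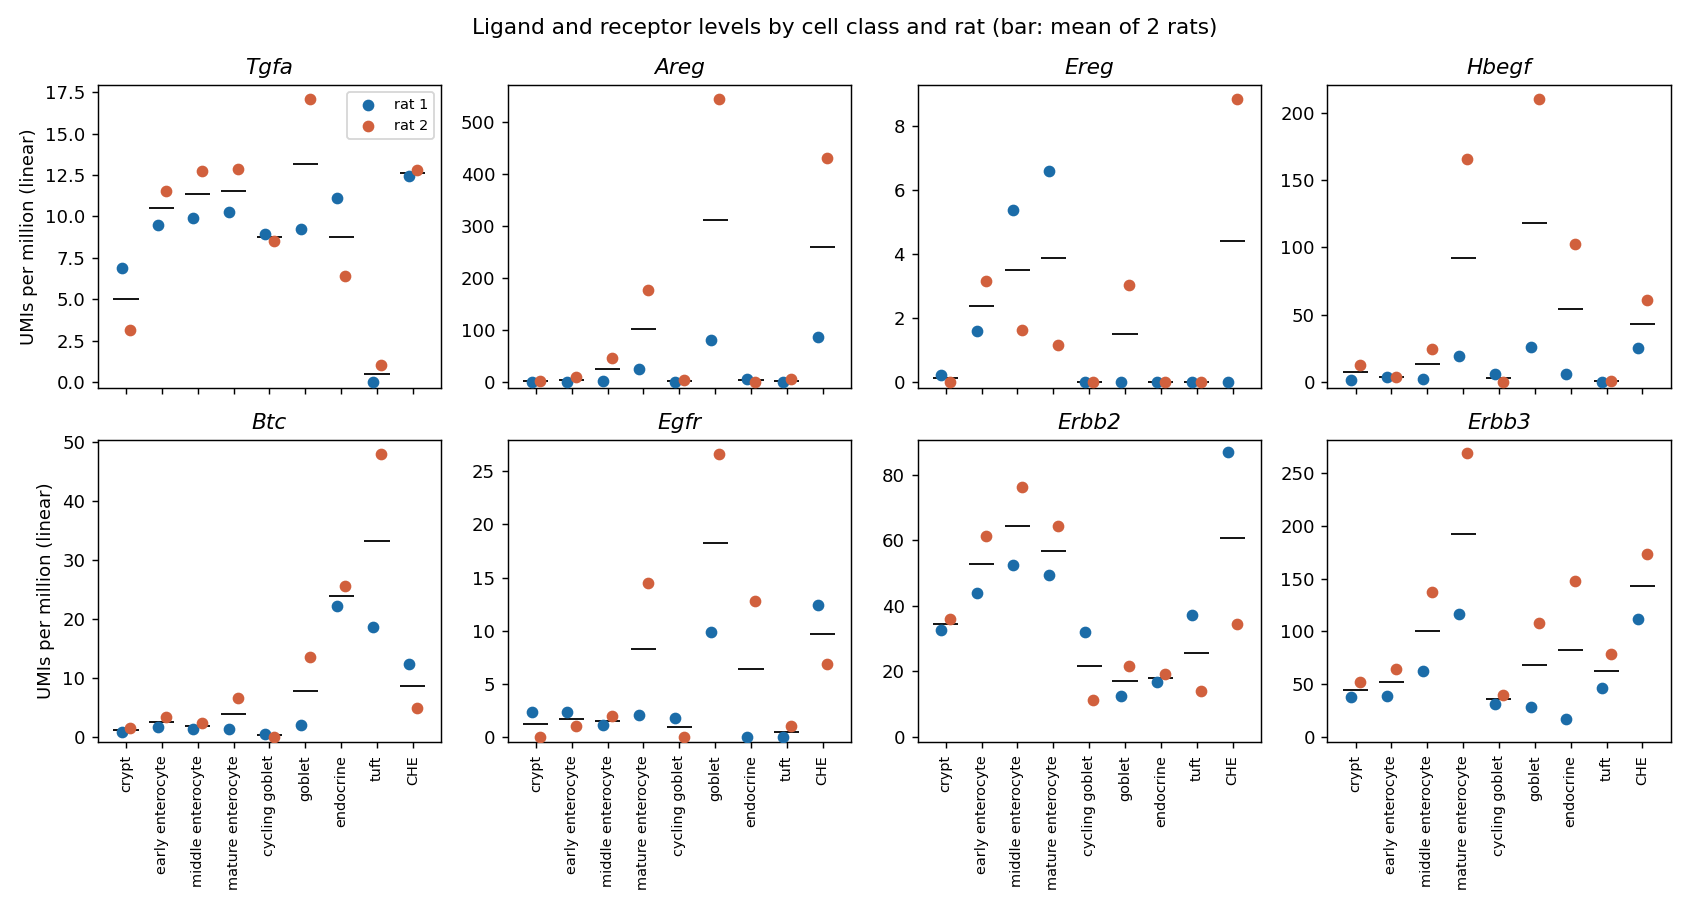
CPM (y axes, linear, a scale for each gene) of 8 genes in 9 cell classes, with 1 point per rat and a bar at their mean. By the mean of both rats Areg and Hbegf were highest in goblet cells, Btc in tuft cells and Erbb3 in mature enterocytes, and rat 2 lay above rat 1 for Areg in 8 of 9 classes.

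Egfr, the receptor that binds all 6 ligands, was read in few cells. Goblet cells had the highest mean, with 9.90 CPM in rat 1 (15 UMIs) and 26.6 in rat 2 (53 UMIs). Mature enterocytes held 2.02 and 14.5, CHEs 12.4 (1 UMI) and 6.88, early enterocytes 2.32 and 0.990 and crypt cells 2.37 and 0, which allows up to 4.70 in the 36 crypt cells of rat 2. Tuft cells held 0 UMIs and 1 UMI. All neighbours in the order of class means overlapped.

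The ratio of goblet cells to enterocytes for Egfr was 5.45 in rat 1 (exact 95% interval 2.94 to 9.43) and 6.03 in rat 2 (4.27 to 8.42). Against mature enterocytes alone it was 4.91 in rat 1 (2.48 to 9.29) and 1.83 in rat 2 (1.28 to 2.61). The log2 fold change against the other cell types was 2.87 ± 0.78 (SE; n = 2 rats) with an adjusted p of 0.046 by edgeR. Without the Atf3-led cluster it was 2.31 with 0.173, and 1.44 in rat 1 and 3.07 in rat 2. The call was also lost by DESeq2 (2.90, adjusted p 0.0574), with library sizes alone (2.66, 0.0676), with a limit of 20% mitochondrial UMIs (2.79, 0.0574), with no upper gene limit (2.53, 0.0766) and with cells without epithelial transcripts kept (2.91, 0.0646). The Atf3-led cluster held 10 of the 15 goblet UMIs in rat 1 and 18 of the 53 in rat 2. After thinning, 5.68% of goblet cells in rat 1 (2.76 to 10.2%) and 20.9% in rat 2 (14.4 to 28.6%) had an Egfr UMI, and without thinning 7.39% and 28.8%. Leukocytes of rat 2, which should lack the receptor, had one in 2 of 235 cells, 0.851% (0.103 to 3.04%).

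Erbb2, the receptor without a ligand of its own, differed little in CPM between the enterocyte tertiles. It ranged from 44.1 to 52.4 CPM over the enterocyte tertiles of rat 1 and from 61.4 to 76.4 in rat 2, while crypt cells stood at 32.8 and 36.03. Goblet cells held 12.5 and 21.6, endocrine cells 16.7 and 19.2 (3 UMIs each), tuft cells 37.1 (8 UMIs) and 13.998, and CHEs 86.9 (7 UMIs) and 34.4. All tertiles of enterocytes lay above crypt cells in both rats, and the crypt, tuft, cycling goblet, endocrine and goblet classes overlapped with their neighbours. The ratio of goblet cells to enterocytes was 0.258 in rat 1 (exact 95% interval 0.155 to 0.404) and 0.321 in rat 2 (0.232 to 0.434).

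In enterocytes the log2 fold change of Erbb2 was 1.88 ± 0.32 (SE; n = 2 rats) with an adjusted p of 0.000377 by edgeR, and 1.29 and 2.35 in the single rats. With library sizes alone it was 1.13 with an adjusted p of 0.00895. In both settings it lay above the median of all genes.

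Erbb3 had its highest mean in mature enterocytes, at 117 CPM in rat 1 and 269 in rat 2, followed by CHEs at 112 and 174 and middle enterocytes at 62.9 and 138. Endocrine cells stood at 16.7 (3 UMIs) and 148 (23 UMIs), goblet cells at 28.4 and 108, tuft cells at 46.4 and 79.0, early enterocytes at 38.9 and 64.6, crypt cells at 37.6 and 51.7 and cycling goblet cells at 31.4 and 39.8. Rat 2 lay above rat 1 in all 9 classes, so that neighbours overlapped across rats. Within each rat mature enterocytes lay above middle and these above early ones. CHEs were at 0.646 times mature enterocytes in rat 2 (exact 95% interval 0.550 to 0.755), whereas in rat 1, with 9 UMIs, the ratio was 0.959 (0.438 to 1.82), so their place there was not resolved. After thinning, 43.3% of mature enterocytes in rat 1 (40.6 to 46.0%) and 72.9% in rat 2 (68.1 to 77.4%) had an Erbb3 UMI, 71.2% and 94.6% without thinning. In leukocytes of rat 2 the thinned share was 2.98% (1.21 to 6.04%).

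The log2 fold change of Erbb3 in enterocytes was 1.19 ± 0.42 with an adjusted p of 0.0375 by edgeR. The call was lost with DESeq2 (0.92, adjusted p 0.0799), with library sizes alone (0.42, adjusted p 0.455), with a limit of 20% mitochondrial UMIs (0.55, adjusted p 0.356), without integration (0.87, adjusted p 0.128) and without the enterocyte cluster led by Slc28a2 and Ada (0.87, adjusted p 0.0892).

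Lrig1, the inhibitor, had 54 UMIs in the classes of rat 1 and 0 in those of rat 2. Of these, 34 lay in crypt cells, at 1.87 CPM, 13 in early enterocytes, at 0.687, 4 in cycling goblet cells, at 1.02, and 1 each in middle enterocytes, mature enterocytes and goblet cells. In rat 1 the level of mature enterocytes was 0.0890 times that of early ones (exact 95% interval 0.00209 to 0.592). The 36 crypt cells of rat 2 held none, which allows up to 4.70 CPM, a limit above the level of rat 1. Early enterocytes of rat 2 held 0 of 11105932 UMIs, which allows up to 0.270 CPM, below the 0.687 of rat 1, and all barcodes held 68 Lrig1 UMIs in rat 1 and 2 in rat 2. Of the 15 enterocyte UMIs of rat 1, however, 8 lay in a cluster of 392 cells and 4 in another of 426, which had 12 and 27 cells in rat 2. Enterocytes were thus spread differently over clusters in each rat, and a difference between rats in like cells cannot be told from these values. Without a filter on low counts Lrig1 had a log2 value of 4.30 in crypt cells with an adjusted p of 0.155 by edgeR.

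Along enterocyte maturity, cells of each rat were placed in 10 bins of equal number by the villus score. Erbb3 went from 39.0 CPM in the first bin to 57.7 in the fifth and 166 in the last in rat 1, and from 50.3 to 120 and 288 in rat 2. Areg went from 0.181 to 1.82 and 59.2 in rat 1, and from 11.2 to 17.2 and 165 in rat 2, where its highest bin was the eighth at 204. Hbegf stayed between 2.18 and 5.10 over the first 9 bins of rat 1 and was 60.6 in the last, and in rat 2 it stood at 5.45 in the first bin, 36.4 in the sixth and 185 in the last.

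Egfr was at 2.17 in the first bin, at 0.579 to 2.64 in the bins between and at 5.69 in the last in rat 1, and in rat 2 it went from 1.21 to 22.1. Erbb2 was highest in the middle of the series in both rats, at 55.0 in the seventh bin of rat 1 and 86.9 in the sixth of rat 2, and Tgfa stayed within 7.61 to 12.0 in rat 1 and 9.05 to 15.3 in rat 2. Levels of Areg, Hbegf and Egfr in the last bin of rat 1 thus lay above those of its other 9 bins, whereas in rat 2 they were spread over the last 4. The share of enterocytes in the Slc28a2 and Ada-led cluster also differed between the rats, with 172 of 3970 cells in rat 1 and 223 of 1119 in rat 2. Its part in the levels of these bins was not tested.

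**Figure D4:**
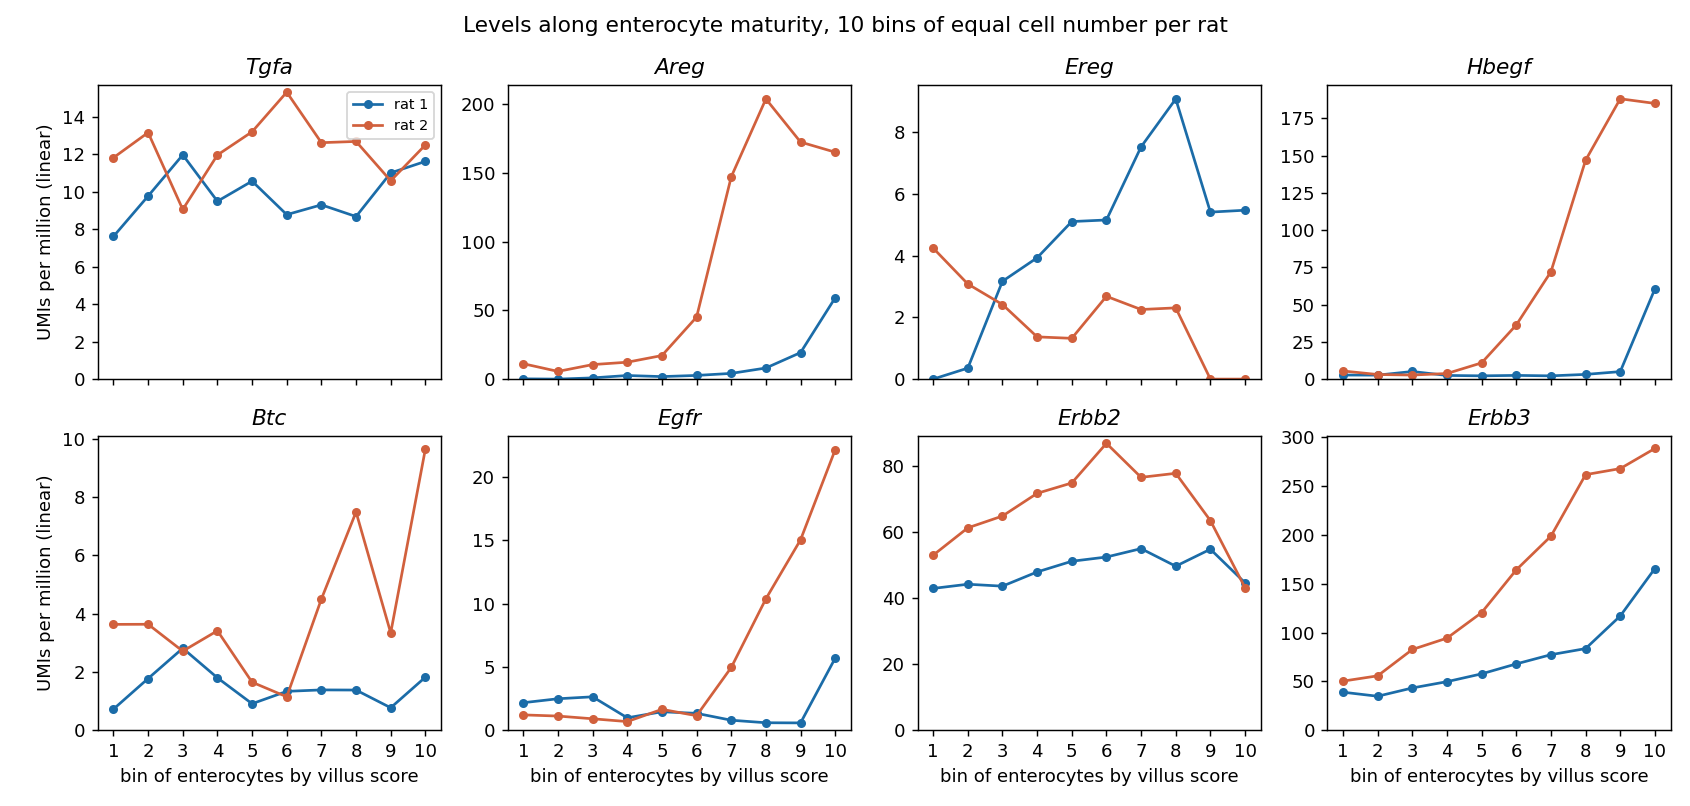
CPM (y axes, linear, a scale for each gene) of 8 genes in 10 bins of enterocytes by villus score (x axes), with 1 line per rat. Erbb3 reached 166 in rat 1 and 288 in rat 2 in the last bin, and Areg and Hbegf were at most 17.2 over the first 5 bins of both rats.

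Mature against early tertiles, Areg had a log2 fold change of 5.32 ± 1.73 (SE; n = 2 rats) with an adjusted p of 0.0869 by edgeR, Hbegf 5.60 ± 1.57 with 0.062, Erbb3 2.72 ± 0.86 with 0.0821 and Egfr 3.23 ± 1.03 with 0.0837. Areg, Hbegf and Erbb3 were positive in both rats. Egfr was at 4.33 in rat 2, but in rat 1 its sign turned with the scaling, with 0.43 by TMM factors and -0.18 with library sizes alone. Its counts there were 33 UMIs in mature and 44 in early enterocytes, a ratio of CPM of 0.867 (exact 95% interval 0.535 to 1.39). The median of all genes was -0.06 in this comparison with TMM factors and -0.79 with library sizes alone. With the rat as a block, which the sharing of animals between tertiles allows, the values were 5.68 with an adjusted p of 5.72e-05 for Areg, 4.52 with 0.00246 for Hbegf, 2.60 with 0.00155 for Erbb3 and 2.69 with 0.0354 for Egfr. Without the cluster led by Slc28a2 and Ada, the value of Egfr in the fit with no block was 0.85 with an adjusted p of 0.609, and -0.68 in rat 1 and 1.82 in rat 2. Both genes are among the 9 of the villus score, and that cluster had the highest mean score. Leaving it out removed cells from the top of the order before tertiles were cut anew, so a smaller difference was partly set by that choice.

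Stress-induced and immediate-early genes did not move as a group along the tertiles. Atf3 was at 4.28 CPM in early and 60.4 in mature enterocytes of rat 1 and at 5.94 and 183 in rat 2, and Junb was at 190 and 312 and at 85.4 and 226. Jun was at 253 and 264 in rat 1 and at 56.8 and 855 in rat 2. Egr1 was at 117 and 29.4 in rat 1 and at 20.4 and 35.04 in rat 2. Fos and Ier3 were higher in mature enterocytes of rat 1 and lower in those of rat 2, with Fos at 199 and 310 and at 220 and 165, and Ier3 at 15.8 and 29.3 and at 16.4 and 11.2. In the Slc28a2 and Ada-led cluster Areg was at 93.3 and 183, Atf3 at 372 and 256 and Jun at 741 and 907. The part of these genes in the levels of Areg was not tested.

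The order used matters here. Brush border genes such as Si peaked in the middle of the villus order and were low at its end, where Si was at 585 CPM in rat 1 and 47.7 in rat 2, so ordering by them put the cells with most Ada at the low end. By that order the joint fit of both rats gave all 4 genes the opposite sign, with log2 values of -3.89 for Areg, -4.75 for Hbegf, -1.08 for Erbb3 and -3.04 for Egfr. Rat 1 did not show this for Erbb3, where the log2 ratio of the last to the first bin of that order was 1.18, nor clearly for Areg, at -0.049. The median mitochondrial share was 13.7%, 15.8% and 12.9% in the early, middle and mature tertiles of rat 1 and 23.1%, 25.1% and 29.0% in rat 2, and its part in these levels was not tested.

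The rest of the pathway was read from a list of 57 genes, of which 55 were in the files and 45 were tested. In enterocytes 7 were higher and 3 lower, beside the 37.4% of all genes called, with a list median of 0.21 beside 0.10 for all genes. Dusp6, a phosphatase that Erk signalling induces and that switches Erk off, was higher by 3.01, the adaptor Eps8 by 2.76 and the kinase Map2k2 by 2.37, while Myc was at -3.53, Ccnd1 at -2.43 and Socs5 at -1.44 on the log2 scale. In crypt cells 3 were higher and 3 lower, where 17.9% of all genes were called, with Myc at 3.08, Ccnd1, encoding cyclin D1, at 2.33 and Rhbdf2, a partner of Adam17, at 1.98, against Dusp5 at -3.13, Ier3 at -1.72 and Fos at -1.69. With the rat as a block 20 of 45 were called in enterocytes, beside 46.8% of all genes, and 11 of 45 in crypt cells, beside 29.5%.

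Goblet cells had 3 of 45 higher and 0 lower, namely the feedback inhibitor Spry2 at 3.89, Eps8 at 2.38 and Fos at 1.66. Of all genes 5.2% were called there. The blocked fit called 9 of 45, beside 10.2% of all genes. Spry2 was at 10.6 CPM in goblet cells of rat 1 and 30.2 in rat 2, and 12.4 (1 UMI) and 45.2 in CHEs, where it was higher by 4.73, together with Ier3 at 2.07, Rhbdf1 at 1.88 and 1 other gene of 45, beside 5.46% of all genes. The other classes held 0 to 4.85 CPM of Spry2 in rat 1 and 0 to 14.1 in rat 2.

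Tuft cells had 2 of 45 higher, Etv4 at 6.15 and Spry1 at 4.58, and 0 lower, where 4.25% of all genes were called, and 5 of 45 were called with the rat as a block, beside 7.58%. Etv4 and Etv5 encode transcription factors that Erk signalling is known to induce. Etv4 was at 9.28 CPM (2 UMIs) in tuft cells of rat 1 and 21.0 in rat 2, Spry1 at 4.64 (1 UMI) and 47.0, and Etv5 at 4.64 (1 UMI) and 61.0. Etv5 was called with the rat as a block only, at 4.35 with an adjusted p of 0.0157. Nrg1, a neuregulin that binds Erbb3, was below the filter, and 11 of its 13 UMIs in the named classes lay in tuft cells, 2 in rat 1 and 9 in rat 2. Endocrine cells had Etv4 higher by 5.98, on 3 UMIs in rat 1 and 1 in rat 2, and Map2k2 lower at -2.31, 2 of 45 beside 5.72% of all genes. Erbb4, the remaining receptor, had 0 UMIs in the named classes of both rats.

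Between mature and early enterocytes 0 of 45 were called, beside 3.3% of all genes, and 9 of 45 with the rat as a block, beside 26.6%. Those included Errfi1, which binds and inhibits Egfr, at 3.58 with an adjusted p of 0.000377, Dusp6 at 3.13 with 0.00279 and Map2k1 at 2.03 with 0.00256, with Ccnd1 at -4.22, Myc at -2.43 and Sos2 at -1.89. Errfi1 went from 6.55 to 70.7 CPM between early and mature tertiles of rat 1 and from 42.0 to 219 in rat 2, and Dusp6 from 7.29 to 96.4 and from 53.4 to 138.

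**Figure D5:**
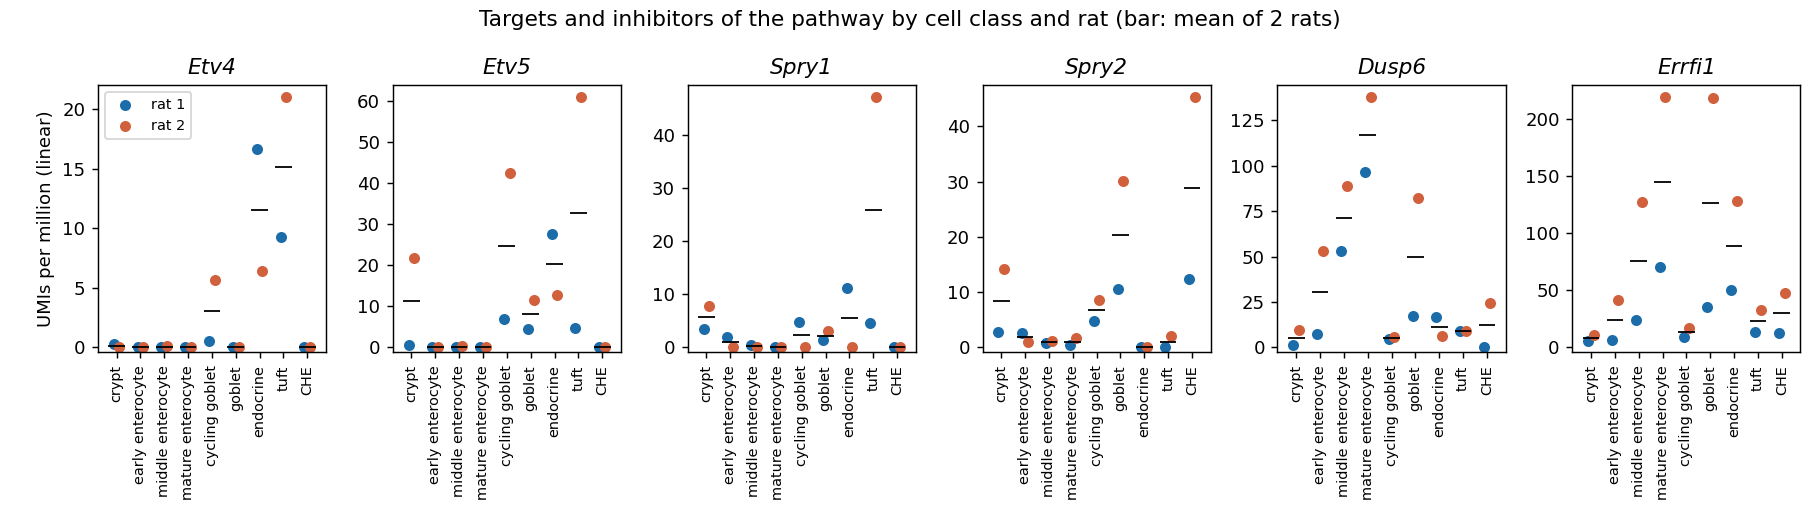
CPM (y axes, linear, a scale for each gene) of 6 pathway genes in 9 cell classes, with 1 point per rat and a bar at their mean. Etv4, Etv5 and Spry1 were at 21.0, 61.0 and 47.0 in tuft cells of rat 2, and Dusp6 and Errfi1 stood above their early-tertile values in mature enterocytes of both rats.

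The genes with the most similar pattern over the 18 class sums were found by Pearson's r of log2 CPM, among 9411 genes with at least 200 UMIs. The sums share 2 libraries and differ in depth, so r is a description. For Areg they were AABR07031193.1 (0.89), Rai14 (0.89) and Ahnak (0.88), and for Hbegf Tp53inp2 (0.88), Itprid2 (0.87) and Nedd9 (0.85). Egfr was most like LOC685680 (0.89), Hbegf (0.80) and Itgb6 (0.79), the only case in which 1 of the 10 genes was among the 3 nearest of another. For Btc they were Cyp4f17 (0.89), Mau2 (0.88) and Pip5k1b (0.84), for Tgfa Tmem181 (0.89), Nedd4l (0.87) and Fam135a (0.85), and for Ereg Ddx58 (0.92), Ezr (0.91) and Ifngr1 (0.88). Erbb2 was nearest to Garnl3 (0.92), Naprt (0.89) and Cdc14a (0.88), and Erbb3 to LOC294154 (0.92), Csnk1d (0.91) and Mafk (0.91).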

How the data were processed

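Single-cell libraries of jejunal epithelium came from 2 rats. The authors deposited raw UMI counts per gene and barcode, made with Cell Ranger against Rnor6 (rn6 in the submitters' processing notes). Per the file headers rat 1 was run with version 3.1.0 and rat 2 with 5.0.1, and version and rat cannot be told apart. Barcodes numbered 12033 with 99986348 UMIs in rat 1 and 8252 with 66469907 in rat 2, and 28 sequences were shared, 4 among retained cells. The 10 genes, the pathway list and the marker lists were chosen with earlier results of these data known.

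Barcodes were retained between 200 and 5800 genes, above 5000 UMIs and up to a mitochondrial share of 40%, then integrated and clustered (Seurat 5.3.0, R 4.3.3, 2000 variable genes without the listed genes, 20 components, resolution 0.3, then 0.5). Clusters with Ptprc in over 25% of cells or high hemoglobin were removed, as were cells with at most 10 UMIs of Epcam, Krt8, Krt18, Krt19 and Krt20. Leukocytes are the cells of the removed leukocyte clusters within that same limit, 8 of 199 in rat 1 and 235 of 308 in rat 2. The marker levels that name a cluster were chosen once the clusters had been looked at. Unnamed clusters (214 and 61 cells) entered no comparison, and names may differ from the study's. Doublets were kept. Scrublet in scanpy 1.11.5 called 116 cells in rat 1 and 2 in rat 2, where it may not have worked.

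UMI counts were summed per rat and class (18 sums) and tested in 1 model with edgeR 4.0.16 (TMM, default filter, quasi-likelihood test, Benjamini-Hochberg, threshold 0.05). Differences within a rat use a prior count of 2. Classes of a rat share an animal: over 36 pairs of classes, differences between rats correlated with a median r of 0.300 (-0.156 to 0.692). The paper names no block, so it is an alternative, with DESeq2 1.42.0, other cell filters, no integration, no low-count filter and mitochondrial genes left out. Library sizes alone and the 2 left-out clusters were added after seeing the data. Named pathway genes are the called ones, up to 3 per direction by fold change with the same sign in both rats; Etv5, Nrg1 and Erbb4 were named after their values were seen. Where a class had 0 UMIs, the level of 3 UMIs is its upper limit. In simulated counts 200 genes were raised by 3 on the log2 scale in 1 class. The test recovered 173 with 12 false calls in goblet cells over 9001 genes, 155 with 5 in tuft cells over 8828, 154 with 5 in CHEs over 8783 and 159 with 7 in crypt cells over 8778. Those counts held no difference shared by the classes of a rat, unlike these data, so they do not give the error rates here. Promoters are RefSeq windows of GRCr8.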

Additional observations from a re-analysis of the deposited data

Results flagged for a closer look

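These genes also had UMIs in barcodes that entered no comparison, above the limit that a count of 0 allows. In barcodes that failed the filters, Areg stood at 5.56 UMIs per 1000000 (CPM) in rat 1 and 47.4 in rat 2, and Hbegf at 8.11 and 32.0. Erbb3 was at 39.9 and 61.5 there and Erbb2 at 30.6 and 36.5, while Egfr was at 2.36 and 3.20 and Tgfa at 5.50 and 5.11. Btc was at 1.64 and 1.94 and Ereg at 1.374 and 1.368 in the same barcodes, and Lrig1 reached 0.589 in rat 1 only. The order of the rats for Areg and Hbegf was thus that of the retained cells.

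Cells of the removed leukocyte clusters counted here had at most 10 UMIs of Epcam and keratin genes. Those of rat 2 held Areg at 6.42 CPM, Hbegf at 8.34 and Erbb3 at 5.78. Cells removed as erythroid held, in the same rat, Areg at 8.53, Erbb2 at 3.20 and Erbb3 at 4.26. The part of free RNA in these values was not tested.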

How the results depend on the processing

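The 20 member values with an unadjusted p under 0.05 were recomputed 277 times, and 272 kept their direction. The exceptions were the 4 genes of the maturity comparison under the brush border order (Areg -3.89, Hbegf -4.75, Erbb3 -1.08, Egfr -3.04) and Ereg in CHEs (-0.89 without rat 2 and 3.45 without rat 1). Leaving out a rat leaves 1 sum per class, so those values carry no test.

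The number of the 8 genes called moved most between mature and early enterocytes, from 0 to 4 with the replicate block, with DESeq2 and with no filter on low counts, to 2 with more than 1000 UMIs per cell and to 1 with a limit of 20% mitochondrial UMIs, without integration and with library sizes alone. All genes called there ranged from 0 (brush border order) to 2691 (replicate block), against 334. In enterocytes 4 became 2 with DESeq2 and 1 with the 20% limit. In crypt cells 1 became 2 with the block and with DESeq2, 3 with no low-count filter and 0 with the 20% limit, with no upper gene limit and without integration. In goblet cells 3 became 1 with the 20% limit, with library sizes alone and without the Atf3-led cluster. In tuft cells 1 became 4 with the block and with no low-count filter, 3 with more than 1000 UMIs and 2 with library sizes alone. With no low-count filter CHEs had 3 and endocrine cells 1. Over all genes, calls went from 526 to 1035 with the block and 1065 with no low-count filter in goblet cells, from 552 to 945 and 993 in CHEs and from 430 to 766 and 914 in tuft cells. In enterocytes they went from 3785 to 4736 with the block, in crypt cells from 1806 to 2983 with the block, and in endocrine cells from 578 to 1270 with no low-count filter. Counts of all genes under the remaining settings are not given here. Moves in the number of the 8 genes under those settings thus have no background beside them and are no result about these genes. The causes were not tested.

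From the first to the last bin of the brush border order, the log2 ratio (1 added to each level) was -0.049 and -2.73 for Areg in rats 1 and 2, -1.46 and -5.58 for Hbegf, -0.93 and -4.03 for Egfr, and 1.18 and -1.004 for Erbb3. Without thinning, shares with a UMI were 60.4% for Areg, 57.6% for Hbegf and 28.8% for Egfr in goblet cells of rat 2, 13.6% for Hbegf in those of rat 1, 84.2% for Areg in CHEs and 30.9% for Btc in tuft cells of rat 2, and 71.2% and 94.6% for Erbb3 in mature enterocytes. Depth limits the 8 CHEs, 19 tuft cells and 21 endocrine cells of rat 1 and the 11 endocrine, 14 cycling goblet and 36 crypt cells of rat 2.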
